A study of Mus musculus with 12 samples.

Results

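Tnc, Thbs1, Sparc, Smoc1, Smoc2 and Postn encode matricellular proteins, and their transcripts were followed across 12 cultures of mouse bile duct organoids. The 6 genes were chosen by name, with their levels in these libraries already known, and each was taken as the row of the raw count table whose Ensembl identifier maps to its symbol. They are 6 of 53700 gene identifiers. Of the 15014 genes abundant enough for a test, 5 are of this set, and Smoc2 was too low.

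Matricellular proteins are secreted into the extracellular matrix, where they act on cell surface receptors, growth factors and proteases more than as structural fibres. Most are low in resting adult tissue and appear during development, repair and fibrosis. In the injured liver tenascin C, thrombospondin 1, SPARC and periostin are best known from stellate cells, portal fibroblasts and other cells of the scar, and epithelial cells in culture can make several of them.

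The organoids were intrahepatic cholangiocyte organoids, hollow cysts of bile duct epithelium grown in Matrigel, left untreated and harvested at passage 5. The question was how hilar and peripheral cultures of the liver differ in a mouse model of Alagille syndrome, a bile duct disorder that arises mostly from mutations of the Notch ligand gene JAG1. Each of 6 mice gave 1 hilar and 1 peripheral culture. The groups were WT hilar and WT peripheral (Jag1+/+; mice 1221, 1223 and 1225) and Ndr hilar and Ndr peripheral (Jag1 Ndr/Ndr, homozygous for a missense allele of Jag1 present in all cells of the animal; mice 1219, 1220 and 1224), with 3 cultures in each. Cultures were derived on 15 June (1221 and 1223), 17 June (1219), 18 June (1220) and 21 June (1224 and 1225) of the same year, so mice 1224 and 1225 are the only animals of different genotype that share a date. Between the other mice, genotype and derivation date cannot be told apart.

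Library totals ran from 6708822 to 16030880 counts. The cultures carried the bile duct epithelial identity on their label: all 14 cholangiocyte markers, among them Epcam, Krt19 and Sox9, had counts in each group, at a summed 13037 to 23259 CPM (counts per 1000000 counts of the TMM-scaled library size) per library. Of the 14 fibroblast and stellate markers, Dcn, Lum and Thy1 were at 0 in all 12 libraries and Col1a1 reached at most 1.79 CPM. Their sum was 3.17 to 4.94 CPM in WT hilar, 4.98 to 16.7 in WT peripheral, 4.84 to 29.0 in Ndr hilar and 0.472 to 21.6 in Ndr peripheral libraries. Endothelial markers summed to at most 1.91 CPM, with Kdr, Emcn, Cldn5 and Clec4g at 0 throughout. Immune markers summed to 10.1 to 40.6 CPM, with Adgre1, C1qa and Clec4f at 0 throughout. Most of that sum was Csf1r (5.87 to 37.0 CPM) and Cd68 (1.45 to 10.7 CPM). Csf1r averaged 25.9 ± 13.5 CPM in Ndr hilar and 11.0 ± 5.48 CPM in WT hilar cultures, with overlap.

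Some hepatocyte and mesothelial markers also had values that differed between groups. The 12 hepatocyte markers summed to 155 to 251 CPM in WT hilar, 176 to 260 in WT peripheral, 163 to 290 in Ndr hilar and 207 to 322 in Ndr peripheral cultures, with Asgr1, Cps1 and Pck1 at 0 throughout. The marker Hnf4a made up most of each sum, at 123 to 300 CPM per library. Ttr, the transthyretin gene, was at 24.95 to 52.0 CPM in Ndr hilar and 2.01 to 7.72 CPM in WT hilar cultures, without overlap. Of all tested genes, 4.57% were higher in this way. Alb, the albumin gene, was at 13.2 to 40.9 and 0.502 to 15.9 CPM in these groups, with overlap. Fgb went the other way, with a mean of 0.937 CPM (Ndr hilar) against 6.06 CPM (WT hilar), and overlap. Of the 4 tested hepatocyte markers, 2 had positive and 2 had negative fitted differences between hilar genotypes. Ttr was also apart between peripheral genotypes, at 4.30 to 21.4 CPM (Ndr) against 0.530 to 3.59 CPM (WT), as were 5.41% of tested genes in this direction. The 8 mesothelial markers, mostly Msln, summed to 39.4 to 665 CPM in WT hilar, 109 to 504 in WT peripheral, 128 to 271 in Ndr hilar and 362 to 607 in Ndr peripheral cultures. Of these, Wt1 was at 0 in all 6 WT libraries and at 1.045 to 3.87 CPM in Ndr hilar cultures. In Ndr peripheral 1224, 1220 and 1219 it was at 26.0, 1.41 and 0 CPM. Pdpn was at 1.79, 22.1 and 20.1 CPM in Ndr hilar 1224, 1220 and 1219. In WT hilar cultures it was at 1.83 to 4.65 CPM, with overlap. Msln had a lower mean in Ndr hilar (201.5 ± 87.1 CPM) than in WT hilar cultures (339 ± 310 CPM). DESeq2 called Ttr between hilar genotypes and, with Wt1, in mouse totals, and edgeR called 0 of these markers (1 hepatocyte and 2 mesothelial ones at an unadjusted p under 0.05 between hilar genotypes). Ttr was highest in the same group as Sparc and Postn, and its part in their levels was not tested. In these bulk samples a lower proportion of expressing cells and less RNA per cell cannot be told apart.

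The promoter table of RefSeq (mouse build GRCm38.p6) held 3 of the 6 genes, Tnc, Sparc and Postn, and their 250 bases upstream of the most downstream listed start were searched on both strands for 4 motifs. The first was TATATAA, known as a TATA box. The second, TGGGAA, is the core site recognised by the Notch effector RBPJ. GGAATG is the core site of TEAD factors, and TGANTCA is the site of AP-1. Tnc and Postn, which had opposite patterns between genotypes in hilar cultures, both held TATATAA close to the start, so these stretches are shown, with matches in capitals. The Tnc stretches of 30 bases lie at chr4:64046948-64046977 and chr4:64047000-64047029 on the minus strand, and the Postn window at chr3:54360857-54361106 on the plus strand.
Tnc TATA: gaaggagctcccTATATAAgcctgccaaag
Tnc RBPJ core: aaaaaaaaaaagTGGGAAaggatgtctgga
Postn: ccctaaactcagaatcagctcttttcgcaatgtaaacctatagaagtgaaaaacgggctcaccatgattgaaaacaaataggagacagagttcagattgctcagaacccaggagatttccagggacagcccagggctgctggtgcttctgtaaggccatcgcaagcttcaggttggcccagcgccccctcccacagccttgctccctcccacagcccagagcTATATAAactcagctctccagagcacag

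TATATAA ran from 29 to 23 bases before the start in Tnc and from 28 to 22 bases before it in Postn. Of 32851 windows of the same length, 3.04% held it. TGGGAA lay 81 to 76 bases before the Tnc start and occurred in 21.6% of windows. GGAATG and TGANTCA, found in 12.6% and 6.75% of windows, matched in none of the 3 genes, and the Sparc window held none of the 4 motifs. Of the 250 bases, 238 in the Sparc window and 79 in the Tnc window lie in GENCODE M21 exons of other transcripts of these genes, so the windows are not purely upstream sequence. A match describes the letters of the window, and binding was not measured.

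**Figure D1:**
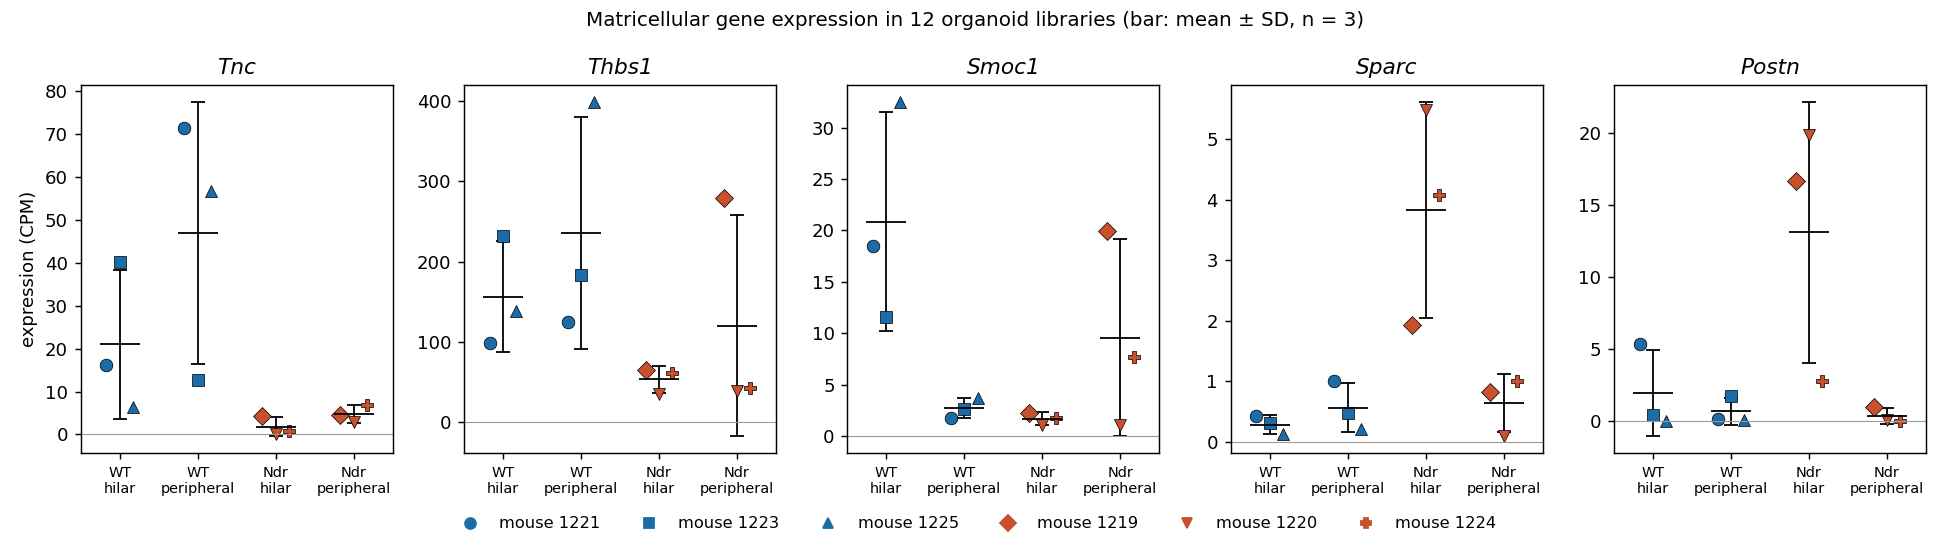
Expression (CPM, linear axis) of the 5 tested matricellular genes in each of the 12 libraries; points are cultures, shaped by mouse and coloured by genotype, and bars give the mean ± SD of 3 cultures. Tnc is low in both Ndr groups, Smoc1 is high in WT hilar cultures, and Sparc and Postn are highest in Ndr hilar cultures.

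Tnc encodes tenascin C, a large hexameric glycoprotein that modulates cell adhesion and binds integrins. It was about 10 times lower in Ndr than in WT cultures of either region. WT peripheral cultures held 71.5, 12.8 and 56.8 CPM (mice 1221, 1223 and 1225; 47.0 ± 30.5, SD, n = 3) and WT hilar cultures 16.3, 40.3 and 6.41 CPM (21.0 ± 17.4). Ndr peripheral cultures held 4.55, 2.83 and 6.86 CPM (mice 1219, 1220 and 1224; 4.75 ± 2.02) and Ndr hilar cultures 4.26, 0.131 and 0.894 CPM (1.76 ± 2.19), the last pair of libraries resting on 1 and 7 counts. Within each region every WT culture lay above every Ndr culture. Across regions the genotypes met at a single point, because the lowest WT value, 6.41 CPM in WT hilar 1225, was below the highest Ndr value, 6.86 CPM in Ndr peripheral 1224.

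The WT mean of Tnc was 11.9 times the Ndr mean in hilar cultures (fitted log2 difference, Ndr minus WT, -3.50, SE 0.992) and 9.91 times it in peripheral cultures (log2 -3.31, SE 0.948). The interaction was -0.20 with an SE of 1.25, too wide to show that the regions were alike. Leaving out single libraries moved it from -2.003 (without Ndr hilar 1219, where the hilar difference was -5.31) to 0.67. Between mice 1224 and 1225, which share a derivation date, the log2 difference was -2.84 in hilar and -3.05 in peripheral cultures. The peripheral value of Tnc was above the hilar value of the same animal in all 3 Ndr mice (as in 12.8% of tested genes). In mouse 1219 the gap was only 1.07-fold, with 44 counts in each library, so the 2 cultures were at about the same level. WT mice 1221 and 1225 also held more in the peripheral culture, by 4.39-fold and 8.87-fold. WT mouse 1223 went the other way, with 3.15 times as much in its hilar culture.

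Thbs1 encodes thrombospondin 1, a trimeric glycoprotein that binds CD47 and CD36 and can activate latent TGF-beta. It was the most abundant of the 6 genes in each group when levels were set per length. WT hilar cultures held 98.8, 232 and 138 CPM (mice 1221, 1223 and 1225; 156 ± 68.7) and Ndr hilar cultures 64.4, 34.2 and 60.5 CPM (mice 1219, 1220 and 1224; 53.1 ± 16.4), so the hilar groups did not overlap. WT peripheral cultures held 124, 184 and 399 CPM (236 ± 145) and Ndr peripheral cultures 279, 38.5 and 42.2 CPM (120 ± 138). Here 2 of 3 Ndr cultures lay below every WT culture, and mouse 1219 lay among the WT values.

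The WT hilar mean of Thbs1 was 2.95 times the Ndr hilar mean (log2 -1.56, SE 0.736). In peripheral cultures the log2 difference was -0.98 (SE 0.724), and it was -2.55 without Ndr peripheral 1219. The same library set the order of the Ndr regions: hilar minus peripheral was -1.18 (SE 0.73) with it and 0.39 without it. Within mice, hilar and peripheral cultures differed by at most 1.43-fold in Ndr mice 1220 and 1224 and by 4.33-fold in Ndr mouse 1219.

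Smoc1 and Smoc2 encode secreted modular calcium-binding proteins of the SPARC family, and SMOC1 is known as an antagonist of BMP signalling that also spreads BMP ligands by binding heparan sulfate. Smoc1 was high in WT hilar cultures and low in Ndr hilar cultures, and the peripheral cultures showed the opposite order. WT hilar cultures held 18.5, 11.6 and 32.5 CPM (mice 1221, 1223 and 1225; 20.9 ± 10.7) and WT peripheral cultures 1.76, 2.63 and 3.71 CPM (2.70 ± 0.974). Ndr hilar cultures held 2.22, 1.05 and 1.79 CPM (mice 1219, 1220 and 1224; 1.69 ± 0.596) and Ndr peripheral cultures 19.9, 1.04 and 7.69 CPM (9.55 ± 9.59). The WT hilar cultures stood clear of the WT peripheral and of the Ndr hilar ones. Ndr peripheral cultures spanned the other groups, with mouse 1219 inside the WT hilar range and mouse 1220 below all WT libraries.

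The mean of Smoc1 in WT hilar cultures was 12.4 times that in Ndr hilar cultures (log2 -3.61, SE 0.85) and 7.72 times that in WT peripheral cultures (log2 2.95, SE 0.816). Each WT mouse had more Smoc1 in its hilar culture, by 10.5-fold, 4.40-fold and 8.77-fold in mice 1221, 1223 and 1225. Hilar exceeded peripheral in all 3 WT mice for 10.3% of tested genes. Among Ndr mice the peripheral culture held 8.96 and 4.30 times the hilar level in mice 1219 and 1224, and the same level in mouse 1220 (ratio 0.993).

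The Ndr peripheral cultures were the least even for Smoc1. In peripheral cultures the Smoc1 difference between genotypes was 1.82 (SE 0.792), and 0.69 without Ndr peripheral 1219. The Ndr region difference of -2.48 (SE 0.823) was -1.36 without that library, and the interaction of -5.43 (SE 1.16) was -4.31. Mice 1224 and 1225 alone gave a log2 genotype difference of -4.19 in hilar and 1.05 in peripheral cultures. When both cultures of a mouse were summed, Smoc1 was at 11.6, 6.54 and 17.1 CPM in WT mice 1221, 1223 and 1225 and at 10.6, 1.02 and 5.25 CPM in Ndr mice 1219, 1220 and 1224, with overlap.

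Smoc2 was almost absent. It had 1 count in WT hilar 1221, 1 count in Ndr hilar 1224 and 0 in the other 10 libraries. These single counts were 0.061 and 0.128 CPM. In the libraries at 0, a count of 0 allows up to 3 counts, which was 0.252 to 0.463 CPM, for counting error only.

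Sparc encodes SPARC, or osteonectin, a small collagen-binding glycoprotein that is a standard marker of fibroblasts and bone. It was low in all cultures and highest in the Ndr hilar ones. Ndr hilar cultures held 1.93, 5.49 and 4.09 CPM (mice 1219, 1220 and 1224; 3.84 ± 1.79), from 20, 42 and 32 counts. The other groups held 0.427, 0.309 and 0.126 CPM in WT hilar (7, 2 and 1 counts; 0.287 ± 0.152), 1.01, 0.478 and 0.212 CPM in WT peripheral (12, 4 and 2 counts; 0.566 ± 0.405) and 0.826, 0.0943 and 1.01 CPM in Ndr peripheral cultures (8, 1 and 11 counts; 0.642 ± 0.483). Each Ndr hilar library lay above all 9 others, which overlapped one another.

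The mean of Sparc in Ndr hilar cultures was 13.4 times that in WT hilar cultures (log2 3.60, SE 0.834) and 5.97 times that in Ndr peripheral cultures (log2 2.55, SE 0.77). In peripheral cultures the genotypes differed by 0.15 (SE 0.798). In all 3 Ndr mice the hilar culture held more Sparc than the peripheral one, and in all 3 WT mice it held less, an arrangement found in 0.733% of tested genes; the interaction was 3.46 (SE 1.15). In WT mice each of those within-animal differences rested on 19 counts or fewer. The fibroblast and stellate marker sum was 4.84, 29.0 and 17.5 CPM in Ndr hilar 1219, 1220 and 1224, in the same order as Sparc, and 21.6 CPM in Ndr peripheral 1219, where Sparc was 0.826 CPM. Most of it was Reln, which was at 2.13, 28.1 and 15.6 CPM in those 3 hilar cultures. Col1a1, a collagen chain gene typical of fibroblasts, had another order (0.774, 0.653 and 1.79 CPM), and Dcn, Lum, Thy1, Col1a2 and Col3a1 were at 0 in all 3.

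Postn encodes periostin, a fasciclin-domain protein that binds integrins and tenascin C and is a marker of activated fibroblasts. Like Sparc it was highest in Ndr hilar cultures, with more spread. Ndr hilar cultures held 16.6, 19.9 and 2.81 CPM (172, 152 and 22 counts in mice 1219, 1220 and 1224; 13.1 ± 9.06) and Ndr peripheral cultures 1.03, 0.0943 and 0 CPM (10, 1 and 0 counts; 0.376 ± 0.571). WT hilar cultures held 5.37, 0.463 and 0 CPM (88, 3 and 0 counts in mice 1221, 1223 and 1225; 1.94 ± 2.97) and WT peripheral cultures 0.168, 1.79 and 0.106 CPM (2, 15 and 1 counts; 0.689 ± 0.957). WT hilar 1221 lay above Ndr hilar 1224, so the hilar groups overlapped, and within Ndr mice the regions did not.

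The Ndr hilar mean of Postn was 34.9 times the Ndr peripheral mean (log2 5.12, SE 1.67) and 6.74 times the WT hilar mean (log2 2.66, SE 1.42). Single libraries moved these values. Without WT hilar 1221 the hilar genotype difference was 5.81, and the WT region difference of 1.62 (SE 1.5) became -1.52. The peripheral genotype difference of -0.84 (SE 1.66) was 1.29 without WT peripheral 1223 and -3.51 without Ndr peripheral 1219.

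**Figure D2:**
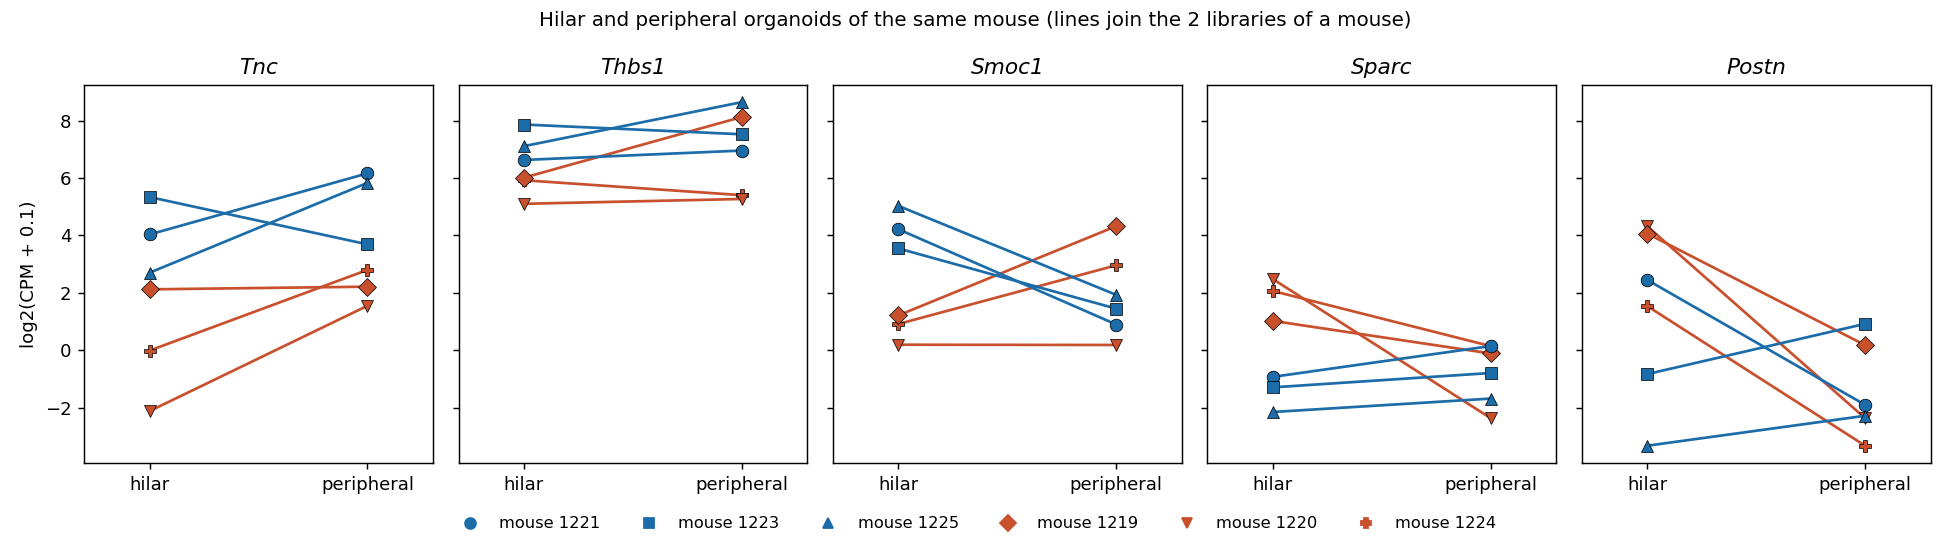
Levels of the 5 genes in the hilar and the peripheral culture of each mouse, as log2(CPM + 0.1), with a line joining the libraries of a mouse. Smoc1 lines run downward from hilar to peripheral in all 3 WT mice and upward in Ndr mice 1219 and 1224, and Sparc lines run downward in all 3 Ndr mice and upward in all 3 WT mice.

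Per kilobase of exon (GENCODE M21 exon union, which sets levels of different genes on 1 scale), Thbs1 averaged 8.74 to 38.8 CPM per kb in the 4 groups. Tnc reached 6.05 CPM per kb in WT peripheral and Smoc1 5.97 CPM per kb in WT hilar cultures, their highest groups. Postn and Sparc reached 1.51 and 1.01 CPM per kb in Ndr hilar cultures. Within a gene, neighbouring groups in the order of means overlapped throughout, except that Sparc in Ndr hilar cultures stood clear of the next group, Ndr peripheral.

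Seen comparison by comparison, the genes parted as follows. Between the hilar groups Tnc, Thbs1 and Smoc1 were lower in Ndr with no overlap, an arrangement that 4.18% of tested genes showed, and Sparc was higher with no overlap, which 4.57% showed. Between the peripheral groups Tnc was lower in Ndr without overlap (3.61% of tested genes). Hilar and peripheral WT groups did not overlap for Smoc1, higher in hilar (2.94%). In Ndr cultures Sparc and Postn were higher in hilar without overlap (7.49%). In totals per mouse Tnc was lower (5.78%) and Sparc higher (5.49%) in each Ndr mouse. Because the genes were picked with such values in view, these counts describe them and test nothing.

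**Figure D3:**
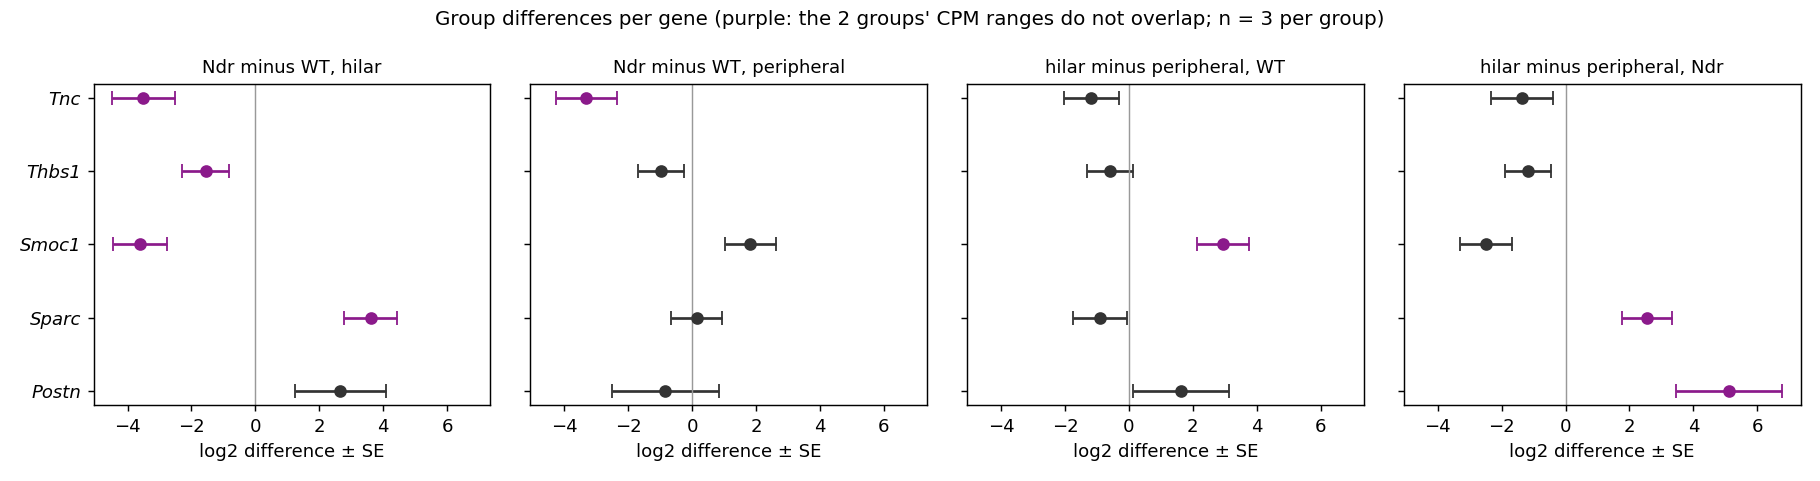
Fitted log2 differences ± SE for the 5 genes (rows) in 4 comparisons of groups (panels), n = 3 cultures per group; purple marks pairs of groups whose CPM ranges do not overlap. Tnc lies at -3.50 and -3.31 in the genotype panels, whereas Smoc1 and Sparc differ between the hilar and the peripheral panel.

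The fit across all genes sets the scale for these differences. edgeR's quasi-likelihood test with Benjamini-Hochberg adjustment called 0 of 15014 genes at 0.05 in each of the 6 comparisons of libraries and 0 of 15401 in mouse totals. At an unadjusted p under 0.05 edgeR had 982 genes (6.54%) between hilar genotypes, 438 (2.92%) between peripheral genotypes, 76 (0.506%) between regions in WT, 1548 (10.3%) between regions in Ndr, 911 (6.07%) between regions over both genotypes, 451 (3%) for the interaction and 834 (5.42%) in mouse totals. limma-voom called 0 genes in each comparison. DESeq2 called 45 genes (0.287%) between hilar genotypes, among them Tnc, Smoc1 and Sparc, 4 (0.0141%) for the interaction, among them Smoc1, and 126 (0.749%) in mouse totals, among them Tnc. It called none of the 6 in the remaining 4 comparisons. There it called 9 genes (0.046%) between peripheral genotypes, 79 (0.47%) between Ndr regions, 7 (0.0417%) between regions over both genotypes and 0 between WT regions. Because the 6 genes were picked with their levels in these libraries known, their calls describe them and are no independent support.

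Other matricellular genes ranged from very abundant to absent. Of 28 relatives listed (CCN proteins, other thrombospondins, fibulins, osteopontin and the like), 13 were tested, and edgeR called 0 of them in each comparison (1 at an unadjusted p under 0.05 between hilar and 2 between peripheral genotypes). Their median log2 difference between genotypes was 0.41 in hilar and -0.18 in peripheral cultures, beside 0.00 and 0.03 over all tested genes. Spp1, Igfbp7, Ccn2 and Fbln2 were the most abundant. Ccn2, or CTGF, a target of YAP, averaged 885 ± 377 CPM in WT hilar, 1226 ± 227 CPM in Ndr hilar, 1004 ± 572 CPM in WT peripheral and 991 ± 705 CPM in Ndr peripheral cultures, and Igfbp7, an IGF-binding matricellular protein, lay between 947 and 1376 CPM in the 4 groups. Thbs2, the closest relative of Thbs1, had a single count, in WT hilar 1221, among all 12 libraries.

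Among the relatives, 2 of the 13 had higher values in every Ndr hilar than in every WT hilar culture, beside 4.57% of all tested genes. They were Ccn4 (7.74 ± 0.557 against 2.35 ± 2.88 CPM, log2 1.66, SE 1.19) and Ccn5 (2.76 ± 2.73 against 0.122 ± 0.211 CPM, log2 3.97, SE 1.64), which encode the Wnt-induced CCN proteins. In mouse totals DESeq2 called 1 relative, Ccn5. In peripheral cultures Efemp1, fibulin 3, was higher (102 ± 35.1 against 53.5 ± 9.05 CPM) and Efemp2, fibulin 4, lower (18.8 ± 11.8 against 41.9 ± 8.19 CPM) in each Ndr culture, arrangements that 5.41% and 3.61% of tested genes showed.

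Receptors of matricellular proteins were tested for 21 of 25 listed genes (integrins, syndecans, CD44, CD47, EGFR and others), and edgeR called 0 (4 at an unadjusted p under 0.05 between hilar genotypes and 1 between peripheral genotypes). In hilar cultures 14 of the 21 had negative genotype differences, with a median of -0.38, as had 7581 of 15014 tested genes. Without overlap, 4 were lower and 1 higher, beside 4.18% and 4.57% of all tested genes. Itga2, which encodes the collagen-binding integrin chain alpha-2, averaged 540 ± 238 CPM in the WT hilar group, against 209 ± 94.7 CPM in Ndr hilar (log2 -1.37, SE 0.491), and Egfr, a receptor for the EGF-like repeats of tenascin C, 264 ± 83.0 against 152 ± 37.0 CPM (log2 -0.79, SE 0.351). Itga3 and Itgb1 were the other lower pair, each at log2 -0.57, and Sdc4, a heparan sulfate proteoglycan, was higher (log2 0.88). Some gaps were narrow. Lowest WT hilar and highest Ndr hilar values were 182.76 and 182.06 CPM for Egfr, and 646 and 639 CPM for Itga3. In peripheral cultures the median was -0.13 and only Itgb3, the beta chain of a vitronectin and thrombospondin receptor, was apart. It was at 4.25 ± 1.63 CPM in WT cultures against 1.20 ± 0.564 CPM in Ndr cultures (log2 -1.82, SE 0.542). Of all tested genes, 3.61% were lower there without overlap. DESeq2 called 1 receptor, Egfr, in mouse totals.

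Matrix proteins that bind the 6 were tested for 11 of 22 genes, with a median of 0.23 in hilar and -0.01 in peripheral cultures and 0 edgeR calls (1 and 0 at an unadjusted p under 0.05). Fn1, fibronectin, to which tenascin C binds, averaged 1715 ± 1199 CPM in the WT hilar group, against 2330 ± 1364 CPM in Ndr hilar. Vcan, the proteoglycan versican, was the only one apart, at 4.33 to 5.92 CPM in WT and 0.766 to 1.18 CPM in Ndr hilar cultures (log2 -2.39, SE 0.763). Of all tested genes, 4.18% were lower in this way. Matrix proteases and their inhibitors were tested for 20 of 26 genes, again with 0 edgeR calls. At an unadjusted p under 0.05 there were 2 between genotypes in each region, beside 6.54% (hilar) and 2.92% (peripheral) of all tested genes. Negative hilar genotype differences were found in 16 of the 20 (median -0.64), as in 7581 of 15014 tested genes. Without overlap, 3 were lower in hilar and 2 in peripheral cultures, beside 4.18% and 3.61% of all tested genes. Mmp13, collagenase 3, averaged 2.58 ± 4.19 CPM in WT hilar cultures, from 0.061 CPM to 7.41 CPM in a single library, and was at 0 in all 3 Ndr hilar cultures. Adamts5, an aggrecanase, averaged 2.64 ± 2.02 CPM in WT peripheral and 0.123 ± 0.139 CPM in Ndr peripheral cultures. DESeq2 called Mmp13, Adamts5 and Adamts9 in mouse totals, where it called 0.749% of all genes.

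BMP pathway genes, listed because SMOC1 acts on that pathway, were tested for 26 of 36 members, with 0 calls by edgeR and by DESeq2 in each comparison (2 genes at an unadjusted edgeR p under 0.05 between hilar genotypes and 1 between peripheral genotypes). Between regions of WT livers, 21 of the 26 had negative differences with a median of -0.23, beside 0.03 over all tested genes. The tilt was not particular to this list: it was 20 of 22 (median -0.34) for the TGF-beta and activin list, 15 of 21 (median -0.32) for the receptors and 15 of 20 (median -0.16) for the proteases. Id2, an inhibitory helix-loop-helix factor that responds to BMP, averaged 321 ± 121 CPM in the WT hilar group. In Ndr hilar it averaged 682 ± 70.2 CPM (log2 1.09, SE 0.337) without overlap, an arrangement that 4.57% of tested genes showed. Bambi, a decoy BMP receptor, was higher in each Ndr hilar culture (14.6 ± 10.9 CPM) than in each Ndr peripheral one (2.04 ± 1.14 CPM; log2 2.83, SE 0.888), and Bmp2, a ligand, lower (1.08 ± 0.525 against 4.80 ± 3.45 CPM; log2 -2.13, SE 0.688). Of all tested genes, 7.49% were higher and 7.93% lower in this way.

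Genes of TGF-beta and activin signalling, known inducers of several matricellular genes, were tested for 22 of 27 members with 0 edgeR calls (2 at an unadjusted p under 0.05 between genotypes in each region). Inhba, the activin A subunit, averaged 50.7 ± 15.0 CPM in the WT hilar group, against 6.91 ± 4.58 CPM in Ndr hilar (log2 -2.86, SE 0.584), and Tgfb1 35.3 ± 13.5 against 15.6 ± 6.49 CPM (log2 -1.17, SE 0.492), both without overlap. In hilar cultures 3 of the 22 were lower and 1 was higher without overlap, beside 4.18% and 4.57% of all tested genes. In peripheral cultures 3 were lower without overlap, beside 3.61% of all tested genes, and Inhba was again among them (log2 -1.62, SE 0.551). The list's medians were -0.05 in hilar and -0.29 in peripheral cultures. DESeq2 called Inhba between hilar genotypes and in mouse totals, and Vim, an intermediate filament gene of mesenchymal cells, between Ndr regions and between regions over both genotypes. Vim was at 0.638 to 2.51 CPM in Ndr hilar cultures (1.49 ± 0.951). In Ndr peripheral cultures it ran from 2.83 to 1974 CPM (660 ± 1138), so its mean there was set almost wholly by the highest library.

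Proliferation genes had lower fitted values in Ndr hilar cultures, where Sparc and Postn were highest. The 24 listed genes summed to 643 to 3866 CPM in WT hilar (3866 in mouse 1225 and at most 1026.5 in the others), 1325 to 1636 in WT peripheral, 585 to 1004 in Ndr hilar and 1543 to 2677 in Ndr peripheral cultures. All 24 had negative fitted differences between hilar genotypes (median -1.73) and between Ndr regions (median -1.82), as had 7581 and 7704 of 15014 tested genes. Of the 24, 13 and 16 were lower at an unadjusted edgeR p under 0.05, beside 552 and 856 of all tested genes. Groups did not overlap for 2 of them between hilar genotypes (4.18% of tested genes) and for 20 between Ndr regions (7.93%). Between WT regions all 24 had positive differences (median 0.34), and 0 were apart. After adjustment edgeR called 0, and DESeq2 called 1, Plk1 between hilar genotypes. The part of the proliferation genes in the levels of Sparc, Postn and Smoc1 was not tested.

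Over the 12 libraries, the levels of the 5 genes as log2(CPM + 1) fell into a pair of loose groupings. Tnc and Thbs1 had r = 0.69 (rho = 0.657) and Sparc and Postn r = 0.707 (rho = 0.644), whereas Tnc and Sparc had r = -0.637 (rho = -0.371). The libraries share mice, genotype and depth, so these values describe the pattern only. Among 11839 named genes of at least 5 CPM, those most like Tnc were Raet1e, Cpe, St8sia6, Ikbke and Gpm6b (r from 0.902 to 0.927), and those most like Smoc1 were Rnf19b, Cyth3, Sh2d5, Unc45a and Basp1 (r from 0.76 to 0.826). Nearest to Thbs1 were Adcy3, Itga2, Lpgat1, Srp72 and Lif (r from 0.857 to 0.924), of which Itga2 is the integrin chain described above. Nearest to Sparc were Gm5113, Ptgds, Cyb5d2, P3h4 and Fcgrt (r from 0.889 to 0.936), of which P3h4 encodes a collagen-modifying complex subunit. Nearest to Postn were Cdc37l1, Zfp24, Irak1bp1, Tspan3 and Cfap36 (r from 0.957 to 0.965).

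The authors' normalized table told a partly different story for the same genes. In it a gene's value divided by its raw count was not constant within a library. Relative to the library's median gene, that ratio was 0.225 for Tnc in WT hilar 1221, where 267 counts became 32.9, and 0.132 in WT peripheral 1223, where 107 counts became 15.6. For Postn it was 7.15 in Ndr hilar 1224, where 22 counts became 186, and 0.0672 in WT peripheral 1223. For Smoc1 it was 0.0978 in WT peripheral 1221 and 0.0868 in Ndr hilar 1219.

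**Figure D4:**
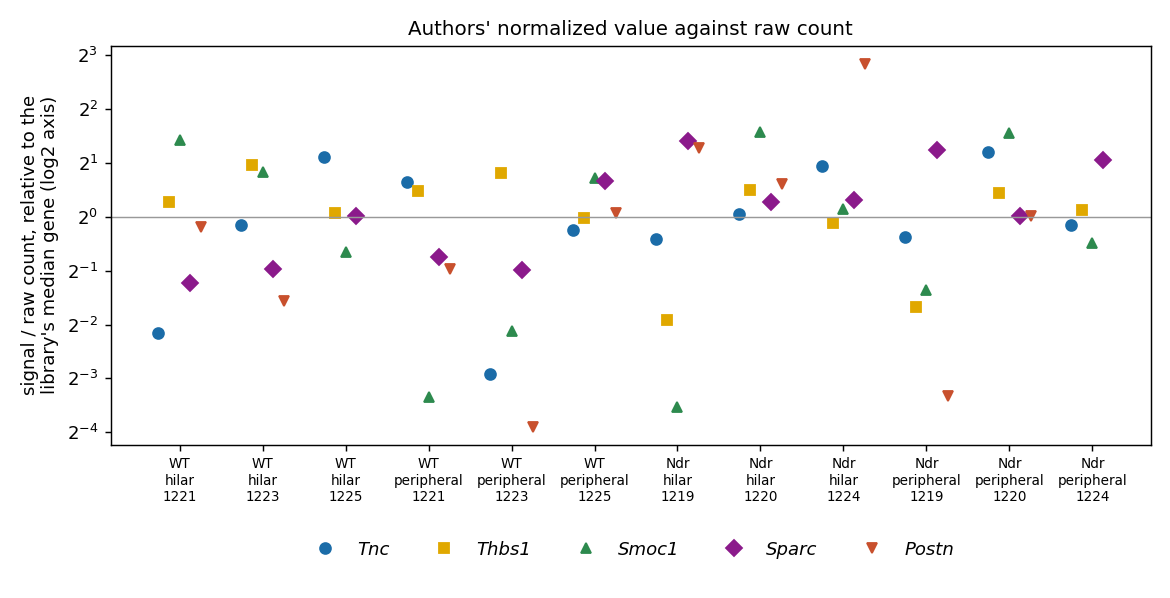
The authors' normalized value divided by the raw count for 5 genes in each library, relative to the library's median gene (log2 axis; the line at 1 marks the median gene). Single genes depart from the line in both directions, from 0.0672 for Postn in WT peripheral 1223 to 7.15 for Postn in Ndr hilar 1224.

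Which groups stood apart differed in that table. For Tnc the peripheral genotypes overlapped there (15.6 to 1042 in WT and 31.6 to 59.8 in Ndr), although they did not in CPM. Thbs1 in peripheral cultures did not overlap there (1602 to 3554 in WT and 425 to 793 in Ndr), nor did Postn in hilar cultures (0 to 42.3 in WT and 186 to 361 in Ndr), although both overlapped in CPM. Regions likewise had no overlap there only for Tnc within Ndr and for Sparc within WT. The hilar genotype separations of Tnc, Thbs1, Smoc1 and Sparc, the WT region separation of Smoc1, and the Ndr region separations of Sparc and Postn were present in both tables.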

How the data were processed

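RNA of 12 organoid cultures (6 mice, 2 regions each) was sequenced from TruSeq libraries, per the labels' protocols. The deposited files are raw counts of reads for each gene, assigned with featureCounts on GRCm39, and a table of normalized signal for which DESeq2 1.34.0 is named, per the submitters' processing notes. The aligner, annotation release, strand setting, handling of shared reads and the steps behind the deposited normalized signal remain not given in the sources used here. Reads of a gene and an overlapping or antisense gene cannot be told apart.

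The raw counts went into edgeR 4.0.16 under R 4.3.3 (low genes removed by filterByExpr, TMM, robust quasi-likelihood test, Benjamini-Hochberg over all tested genes, threshold 0.05). One fit over 12 libraries had 1 coefficient per group (15014 genes, 8 residual degrees of freedom), and a second used the 6 mouse totals (15401 genes, 4 degrees of freedom). Each standard error is the log2 fold divided by the square root of its F. The fits were also run on simulated data, with independent libraries, a fixed spread for all genes and changes put only into abundant genes. That run does not show how the fits behave for paired cultures or for changes in low genes. With 3 mice on each side, the smallest two-sided p of an exact permutation test is 0.1. Alternatives were DESeq2 1.42.0, limma-voom and limma-trend (limma 3.58.1; log2(signal + 1) for the normalized table), other normalizations, no filter, derivation date as a factor, mice 1224 and 1225 alone, mouse as a block, and each replicate left out.

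The 6 genes and the lists of related genes were chosen with earlier results of these data known, so the values of the 6 genes carry no p-value. Named in the text are the 6 genes, the 4 most abundant members of a list or fewer, up to 4 list members with non-overlapping groups, and the 5 genes most like each of the 6 in pattern; genes called by DESeq2, Thbs2, Sdc4, single cell type markers and the list members named for a single library were added after their values were seen. Symbols came from GENCODE M21 (52093 of 53700 identifiers matched, and all 258 list symbols). Cultures with 1 mouse number come from 1 animal, which pairs them. Deviations of paired libraries from their group means correlated at 0.157, -0.402, -0.376, 0.341, 0.44 and -0.0948 for mice 1224, 1220, 1219, 1221, 1225 and 1223.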

Additional observations from a re-analysis of the deposited data

Results flagged for a closer look

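Sparc had opposite differences between regions in the 2 genotypes: the hilar culture held more than the peripheral one in all 3 Ndr mice and less in all 3 WT mice. The log2 interaction was 3.46 (SE 1.15), and such an arrangement was found in 0.733% of tested genes. Sparc counts were 1 to 12 in the 6 WT libraries. The interaction was chosen for its pattern and is given as a value, without a test.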

How the results depend on the processing

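edgeR's 0 calls in each comparison held with limma-voom on the raw counts, but not with every tool and input. DESeq2 called 45 genes between hilar genotypes, 9 between peripheral genotypes, 79 between Ndr regions, 4 for the interaction, 7 between regions over both genotypes and 126 in mouse totals. limma-trend on the authors' normalized table called 1446, 93, 9, 2, 4 and 7227 in the same order. That table is another input, in which single genes were moved away from their raw counts. Tool and input cannot be told apart in those counts. Mouse totals gave 5 calls with no filter on low counts. With derivation date as a factor, the genotype difference in mouse totals rests on mice 1224 and 1225 alone, so its calls are not counted here. Leaving out 1 culture at a time gave 0 to 2 calls between peripheral genotypes and 0 to 7 between Ndr regions, both highest without Ndr peripheral 1219, and leaving out 1 mouse gave 0 to 4 in mouse totals, highest without Ndr mouse 1219. The cause was not tested. With mouse as a block (the paired fit, 4 residual degrees of freedom), the region comparisons and the interaction again gave 0 calls each, and the block changed no call.

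Among the 6 genes, the hilar genotype differences of Tnc (-5.31 to -2.63), Smoc1 (-4.47 to -3.15), Thbs1 (-2.49 to -1.16), Sparc (3.26 to 5.32) and Postn (2.10 to 5.81) kept their sign under each alternative run. So did the peripheral differences of Tnc (-3.78 to -2.01) and Smoc1 (0.69 to 2.33). The interaction of Tnc (-2.003 to 0.67) and the peripheral differences of Sparc (-0.34 to 2.25) and Postn (-3.51 to 1.29) did not. Depth limits Sparc and Postn, whose libraries outside the Ndr hilar group held at most 12 and 88 counts, and Smoc2.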
